A study of Drosophila melanogaster with 4 samples.

Results

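The Groucho peaks of both Hox complexes of Drosophila melanogaster are described here. Members were the peaks on chromosome arm 3R whose centre lay from 2480000 to 2830000, the window of the Antennapedia complex, or from 12480000 to 12810000, the window of the bithorax complex (FlyBase release 5). The 2 windows held 63 of the 11165 peaks of the list, and of the 2880 on 3R. Of these, 35 lay in the Antennapedia window and 28 in the bithorax window. The peak list carries no gene names, so the windows alone define the members, and their names could not be checked against the file.

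Hox genes encode homeodomain transcription factors that give each segment of the body its identity, and their order on the chromosome follows the order of the body parts in which they act. In the fly they lie in a pair of complexes. Hox genes are held silent outside their domains by Polycomb group proteins, and their large regulatory regions hold many separate enhancers, silencers and boundary elements. Groucho is a co-repressor that is recruited by DNA-binding repressors and does not bind DNA itself.

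The homeotic genes number 8. In the Antennapedia complex, lab acts in the head and midgut, pb in the mouthparts, Dfd in the maxillary and mandibular segments, Scr in the labium and first thoracic segment, and Antp in the thorax. In the bithorax complex, Ubx acts in the posterior thorax and first abdominal segment, abd-A in the abdomen and Abd-B in its most posterior part. In a RefSeq gene table on release 6, the order along the arm by rising coordinate was lab, pb, zen2, zen, bcd, Dfd, Scr, ftz and Antp in the first complex, and Ubx, abd-A and Abd-B in the second. The genes zen2, zen, bcd and ftz are homeobox genes of the complex without a homeotic role. From lab to Antp that table places 44 genes, of which 20 code for proteins, and from Ubx to Abd-B it places 16, of which 6 do. Coordinates were not carried between releases, so the gene order is background and no peak was assigned to a gene.

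White prepupae, which are animals at the start of metamorphosis, gave 4 chromatin libraries, 2 by immunoprecipitation with rabbit antibodies to Groucho and 2 of input DNA. All came from the strain Y cn bw sp, whose listed genotype is y[1] and oc[R3.2] on one chromosome, Gr22b[1], Gr22d[1], cn[1], then CG33964[R4.2], bw[1] and sp[1] on the next, and LysC[1], lab[R4.2], then MstProx[1], GstD5[1] and Rh6[1] on the last. One of these alleles, lab[R4.2], is of a homeotic gene of the Antennapedia complex, and all 4 libraries share it. The labels name no tissue, so binding in few cells and weaker binding in many cannot be told apart. The data are 1 peak list for all libraries, with a MACS score per peak. Spread between replicates and depth are therefore unknown, and no test was made. Each score is the authors' value, and its scale was not stated.

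Groucho peaks were about as numerous in the Hox complexes as elsewhere on 3R. The Antennapedia window of 350 kb held 35 peaks, or 10.0 per 100 kb. In 76 other windows of the same size, stepped along 3R from its edges, the number ranged from 5 to 77 with a median of 33.5, and 34 of them held more. The bithorax window of 330 kb held 28 peaks, or 8.48 per 100 kb, against 5 to 74 and a median of 32 in 80 windows of its size, of which 48 held more. Both complexes therefore lay between the quartiles of their comparison windows, which were 23 and 46 peaks for the first and 22 and 45 for the second. Against those medians the side depends on the settings. The Antennapedia number was 1.04 times the median, but 0.935 and 0.947 times with windows 20 kb narrower or wider on both sides. The bithorax number was 0.875 times the median, but 1.16 and 1.42 times after peaks less than 1 kb or 5 kb apart were joined.

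**Figure D1:**
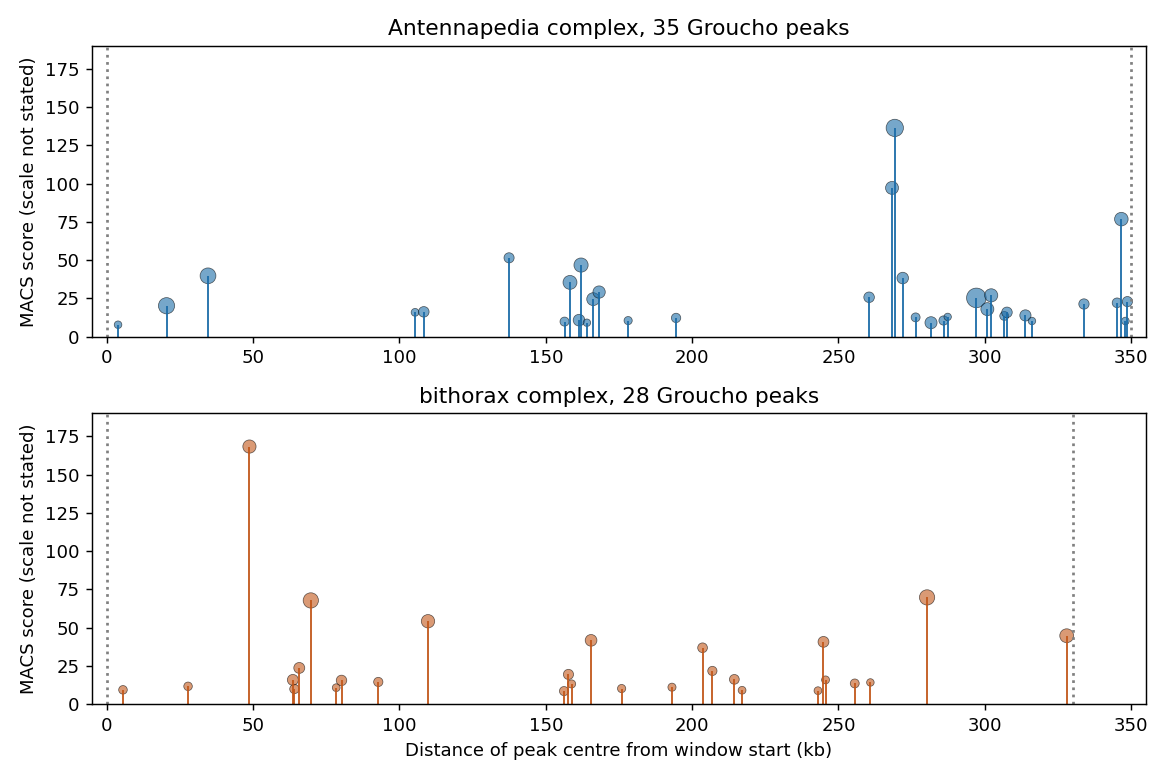
Groucho peaks along each complex. Each stem is 1 peak, placed by the distance of its centre from the window start (kb) with its MACS score as height, the area of the dot rises with peak width, and dotted lines mark the window edges. The Antennapedia peaks stand in groups separated by empty stretches of 70.2 and 65.6 kb, whereas the highest bithorax peak (168.39) stands alone.

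The peaks of the bithorax complex were narrow. Their median width was 319 bp, with quartiles of 249.5 and 442.25 bp, against a median of 459 bp over the 2817 peaks of 3R outside both windows. None of the 80 comparison windows had a lower median width, and their lowest was 333 bp. A lower median was found in 27 of 2623 overlapping windows at steps of 10 kb, in 8 of 277 windows on the 4 large autosome arms, in 2 of 91 windows when all were 20 kb narrower on both sides, and in 7 of 80 when only peaks scoring at or above the list median were counted. The widest bithorax peak measured 862 bp, and 77 of the 80 windows had a wider one. The Antennapedia peaks had a median of 414 bp, lower than in 59 of 76 windows, and with the window 20 kb narrower on both sides that median was 466 bp, above 50 of 84 windows. The widest Antennapedia peak measured 1414 bp, and 62 of the 76 windows held a wider one.

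Few peaks of either complex were broad. Peaks wider than 1 kb numbered 2 of 35 in the Antennapedia complex and 0 of 28 in the bithorax complex, against 14.6% of the other 3R peaks. Peaks wider than 2 kb numbered 0 in each, against 2.06%, and with 63 members these shares are close. Covered sequence was below that of the median comparison window in both complexes. Peaks occupied 4.98% of the Antennapedia window, where the comparison windows had a median of 5.62% and 46 of 76 had more. They occupied 3.34% of the bithorax window, where the median was 5.92% and 64 of 80 had more.

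Bithorax peaks also stood apart from each other. Of the 28, 1 (3.57%) had at least 4 other peak centres within 10 kb, against 51.0% of the other 3R peaks. A smaller share was found in 5 of the 80 comparison windows, and in 0 of the 21 whose number of peaks was within 5 of that of the bithorax window, a subset chosen after the data had been seen. In the other settings a smaller share was found in up to 10 of 91 windows (11.0%), when all were 20 kb narrower on both sides, in 27 of 277 on the 4 large autosome arms and in 220 of 2623 overlapping windows. At the other extreme, 8 of the 28 (28.6%) had no other peak within 10 kb, against 7.92% of the other 3R peaks. In the Antennapedia complex 17 of 35 peaks (48.6%) had at least 4 others, a share near that of the arm, while 6 (17.1%) had none. The median stretch between neighbouring peaks was 8135 bp in the bithorax complex, 3300 bp in the Antennapedia complex and 2329 bp on 3R outside both. These stretches and the shares with no other peak near were set beside the pooled arm only, and were not ranked among windows of the same size.

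**Figure D2:**
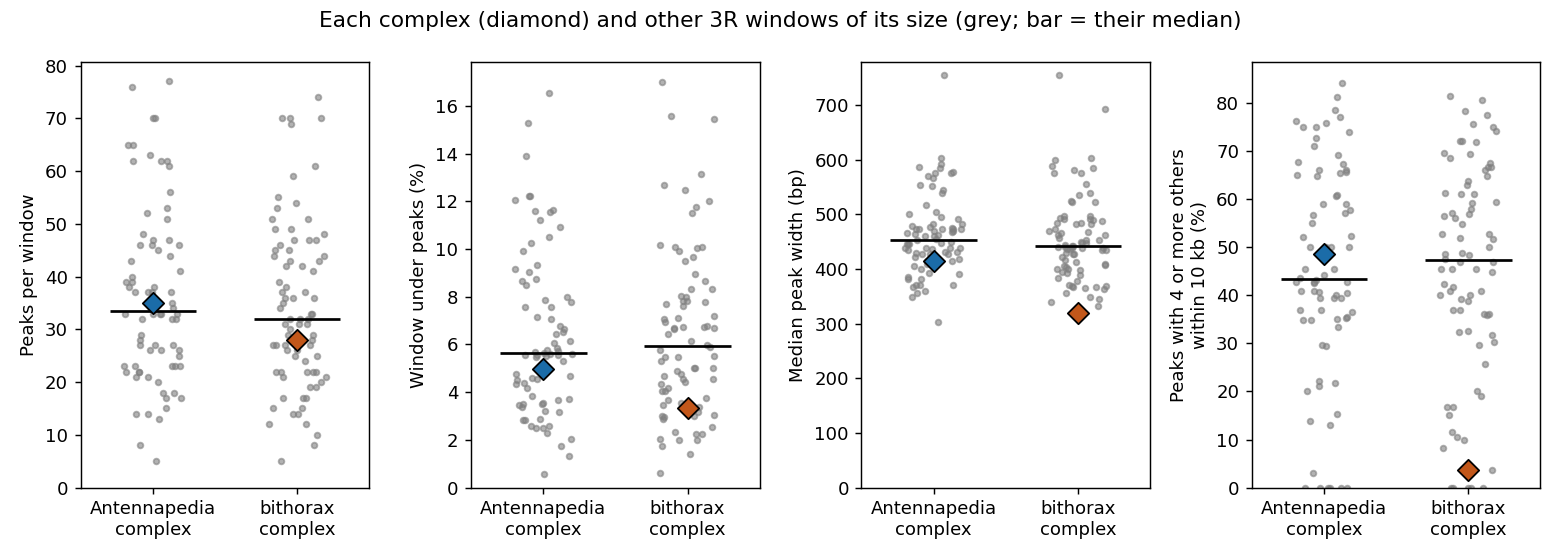
The complexes among other windows of 3R. The 4 panels give peaks per window, the percent of the window under peaks, median peak width (bp) and the percent of peaks with at least 4 others within 10 kb, with the complex as a diamond, each comparison window as a grey dot and their median as a bar (76 windows of 350 kb, 80 of 330 kb). The bithorax complex lies below all 80 windows in median width (319 bp) and near the bottom in the last panel (3.57%), while its number of peaks lies among the rest.

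Within the Antennapedia complex the peaks were gathered in the middle and at the far end of the window. Of its 10 segments of 35 kb, 3 held no peak centre and the fullest, from 280 to 315 kb from the start, held 9. The first of the long peak-free stretches ran from 2515037 to 2585219, or 70.2 kb. Such a stretch was not rare for a window of this size, since 28 of the 76 comparison windows held a longer one. The second ran from 2674665 to 2740254, or 65.6 kb. The third, from 2588518 to 2617253, measured 28.7 kb. Together these 3 stretches made up 47.0% of the window.

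The fullest chains of peaks, that is, peaks with gaps under 5 kb, stood in the middle of the window and after the last of those stretches. A chain of 7 peaks spanned 12.2 kb from 2636245 to 2648489, and its highest score was 46.81. Another chain of 7 spanned 19.4 kb from 2747985 to 2767410 and held the strongest peak of the complex. The third, of 5 peaks, ran from 2776401 to 2787771 over 11.4 kb and scored at most 27.03. Of the 1028 chains of 3R, single peaks included, 57 held more than 7 peaks, so these groups were of a size reached by many others on the arm.

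The highest score of the Antennapedia complex, 136.43, belonged to a peak of 1105 bp at 2748686 to 2749790, which ranked 95th among the peaks of 3R, and 46 of the 76 comparison windows held a higher one. Right before it, a peak of 621 bp at 2747985 to 2748605 scored 97.23. These neighbouring peaks, called separately, lay 269.238 and 268.295 kb from the window start. The third score, 76.83, was that of a peak of 680 bp at 2826309 to 2826988, next to the far edge of the window. A narrow peak of 381 bp at 2617254 to 2617634 scored 51.54 with no other within 10 kb, and a peak of 743 bp at 2641669 to 2642411 scored 46.81 with 6 others. The widest peak of the complex, at 2776401 to 2777814, was weak for its width. It scored 25.36, and 77 of the 80 other 3R peaks within 100 bp of its width scored higher. The third widest, 973 bp at 2499921 to 2500893, scored 20.23, and 155 of 174 peaks of like width scored higher. The 5 highest peaks were not weak for their width. Of peaks of like width, 11 of 125 scored above 136.43, 21 of 485 above 97.23 and 35 of 393 above 76.83. For the scores of 51.54 and 46.81 the numbers were 24 of 923 and 92 of 318. The lowest score, 7.82, belonged to a peak of 213 bp at 2483735 to 2483947. The comparison at like width was chosen after the data had been seen.

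**Figure D3:**
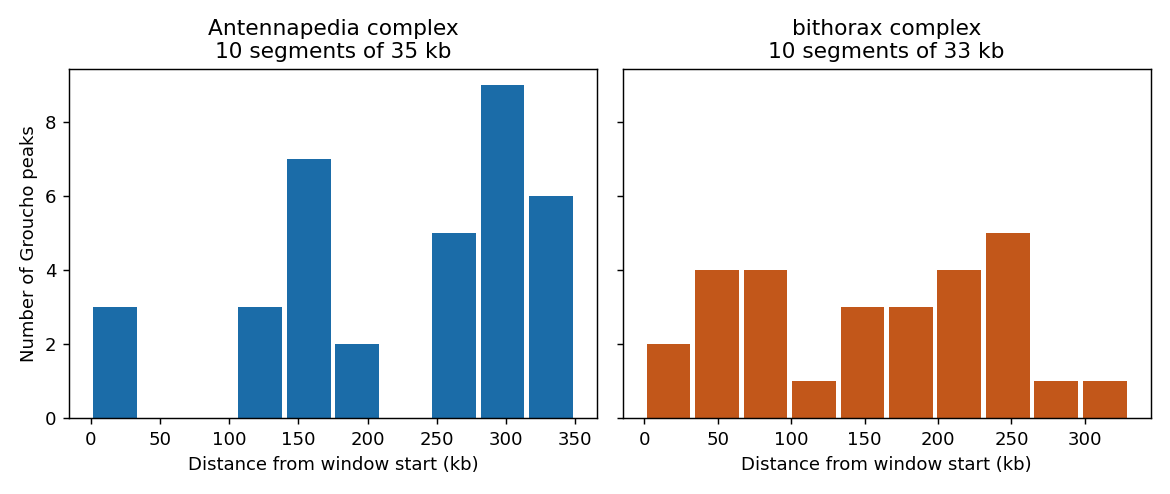
Number of Groucho peaks in 10 equal segments of each window, by distance from the window start (kb). Bars of the Antennapedia complex range from 0 to 9 peaks with 3 empty segments, and bars of the bithorax complex from 1 to 5 with none empty.

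Within the bithorax complex the peaks were spread more evenly over the 10 segments than in the Antennapedia complex. Each of its 10 segments of 33 kb held between 1 and 5 peaks. That none was empty depends on where the segment borders fall, since 2 peak-free stretches were longer than a segment. No comparison window was cut into segments. The longest peak-free stretches ran from 12760697 to 12807627 (46.9 kb), from 12590075 to 12636067 (46.0 kb) and from 12697175 to 12722873 (25.7 kb), and made up 35.9% of the window. Of the 80 comparison windows, 57 held a longer stretch than the longest of these, which lay between their quartiles of 40322 and 105977 bp. Stretches over 20 kb numbered 5 of 27 (18.5%), against 8.82% in the Antennapedia complex and 11.1% on 3R outside both. The fullest chain held 4 peaks, from 12543343 to 12550138, and the next, from 12636068 to 12638934 and from 12722874 to 12725699, held 3 each. Peaks that formed no chain with another, inside or outside the window, made up 11 of its 28 peaks (39.3%), against 22.9% of peaks in the Antennapedia complex and 15.5% on 3R outside both. Neither this share nor that of stretches over 20 kb was ranked among windows of the same size.

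The bithorax complex held the highest-scoring Groucho site of both windows. A peak of 644 bp at 12528416 to 12529059, about 48.7 kb from the window start, scored 168.39 and ranked 51st on 3R. A highest peak of that score was usual for a window of this size, since 33 of the 80 comparison windows held a higher one. It had no other peak within 10 kb. For its width, 2 of the 445 other 3R peaks within 100 bp of its width scored higher, and their median was 25.78, which describes a peak picked as the highest of its window. It made up 21.1% of the summed score of the complex, a share that depends on the scale of the score.

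The next scores in the bithorax complex were much lower. A peak of 859 bp at 12759838 to 12760696 scored 69.81, with no other within 10 kb. The widest peak of the complex, 862 bp at 12549277 to 12550138, scored 67.83 and was the member with 4 others near. A peak of 660 bp at 12589415 to 12590074 scored 54.24 and was again alone. The fifth, 711 bp at 12807628 to 12808338, scored 44.76 beside the far edge of the window and had 2 others within 10 kb. These peaks stood out less for their width than the highest one. Of other 3R peaks of like width, 55 of 227 scored above 69.81 and 56 of 225 above 67.83. For the scores of 54.24 and 44.76 the numbers were 66 of 430 and 97 of 344. Over all 28 members, 28.6% had no other within 10 kb, against 7.92% of the other 3R peaks. The lowest score, 8.6, was that of a peak of 310 bp at 12636068 to 12636377.

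Over all members, the median score equalled that of the other 3R peaks in the Antennapedia complex and was lower in the bithorax complex. These medians include the high peaks named above. In the comparison windows the median score was above the bithorax value in 61 of 80 and below it in 18, with a lower quartile of 16.0525. For the Antennapedia complex, 40 of 76 windows had a higher median score. The median score was 18.01 in the Antennapedia complex (quartiles 11.545 and 28.1) and 15.735 in the bithorax complex (11.045 and 37.865), against 18.01 over the other 3R peaks (12.32 and 35.49). Scores above 100 were found in 1 of 35 and 1 of 28 peaks, against 6.03% of the other 3R peaks. Scores in the upper quartile of the whole list were found in 7 of 35 (20.0%) and 8 of 28 (28.6%), against 23.7%. Score rose with width in this list (the plot of score against width), and narrow peaks were more frequent in the bithorax complex. Peaks of at most 300 bp made up 39.3% of the bithorax, 25.7% of the Antennapedia and 24.3% of the other 3R peaks, with median scores of 11.12, 10.53 and 11.04. Peaks of over 600 bp made up 17.9% of the bithorax (5 peaks), 31.4% of the Antennapedia (11 peaks) and 34.3% of the other 3R peaks. Their median scores were 67.83, 35.49 and 43.25. The 5 bithorax peaks of that width are its 5 highest-scoring members, already named above. Among peaks wider than the list median of 454 bp, the bithorax median was 61.0 over 6 peaks, 1.86 times that of the other 3R peaks, so the direction of the score difference turns with that limit.

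**Figure D4:**
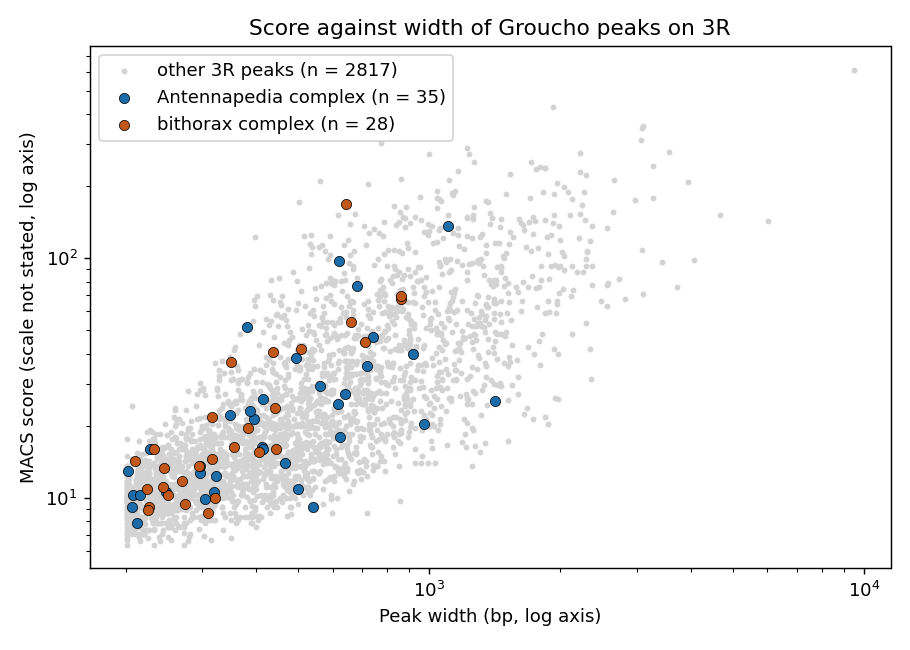
Score against width of the peaks of 3R, both on log axes, with 1 point per peak. Antennapedia (35) and bithorax (28) members lie within the cloud of the 2817 other peaks, none of the bithorax peaks is wider than 862 bp, and the peak of 644 bp with a score of 168.39 lies at its upper edge.

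Set side by side, the bithorax complex had 0.848 times the peak density and 0.671 times the covered share of the Antennapedia complex. With peaks less than 5 kb apart joined, the ratio of densities was 1.29, so which complex held more sites depends on whether close peaks count as 1 site. The covered share was lower in the bithorax complex in each of the 3 other settings run, at 0.574 to 0.744 times. Median width was 0.771 times that of the Antennapedia complex, and the highest score 1.23 times. The list has 1 value for each of these measures, and whether the complexes differ beyond the error of the peak list was not tested.

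Both windows had fewer peaks in the 100 kb before them than in the 100 kb after them. The comparison windows had medians of 9.57 (Antennapedia size) and 9.70 (bithorax size) peaks per 100 kb. No other stretches of 100 kb were counted, so how usual such flanks are was not examined. In the 100 kb before the Antennapedia window 1 peak was found, with a score of 9.68, and in the 100 kb after it 16, with a median score of 17.175 and a highest of 70.19. The bithorax window had 4 peaks in the 100 kb before it, scoring 11.12 to 33.18, and 18 in the 100 kb after it, with a highest score of 289.74. Of those 18, 4 scored above 100, against 1 of 28 in the bithorax complex, 1 of 35 in the Antennapedia complex and 6.03% of the other 3R peaks. At the lower Antennapedia edge the nearest peaks inside and outside scored 7.82 and 9.68, and at the upper edge 22.94 and 24.48. At the bithorax edges they scored 9.41 inside and 11.12 outside at the lower one, and 44.76 and 34.56 at the upper one, where the peak outside lay 2241.5 bp beyond the limit. Within 20 kb of the edges, the Antennapedia window had 1 peak inside and 1 outside at its lower edge, and 5 inside and 0 outside at its upper edge. The bithorax window had 1 inside and 0 outside at the lower edge, and 1 inside and 3 outside at the upper one.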

How the data were processed

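Chromatin immunoprecipitation libraries were grouped by title into Groucho ChIP (2) and input DNA (2). The authors deposited 1 peak list, on FlyBase release 5 per the file headers, whose source column names MACS. Per the submitters' processing notes, the build was BDGP5 and the tools were BWA, MACS2 and 2 versions of CASAVA, 1.7.0.2 and 1.7.0.3. The threshold, filters and any pooling were not given in the sources used here. Scores are the authors' deposited values and were compared only within the list.

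Peaks were counted by centre. Comparison windows were stepped outwards from each complex up to the last peak of 3R, without windows that overlap either complex. Covered sequence was the percent of bases under peaks. Named peaks were the 5 highest, 3 widest and the lowest-scoring of each complex, with the 3 longest stretches and 3 fullest chains. Members, lists and rules were chosen with earlier results of these data known. The gene table is on release 6, so only names and order were used. Window counts, covered sequence, comparison windows and joining were checked on 20 simulated peak lists, and the other measures were not. Python 3.11.15, numpy 2.4.6, pandas 2.3.3 and matplotlib 3.10.9 were used.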

Additional observations from a re-analysis of the deposited data

How the results depend on the processing

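Of 64 alternative values, all ratios, 53 kept their side of 1 and stayed within 1.5 times the reported value, 4 had 1 as the reported or alternative value, and 7 changed side. Of those 7, 3 also moved by more than 1.5 times, namely 1.42, 1.29 and 1.86 below. The Antennapedia peak number was 1.04 times the median window as reported, 0.935 with windows 20 kb narrower and 0.947 with windows 20 kb wider on both sides. The bithorax peak number was 0.875 as reported, 1.16 with peaks less than 1 kb apart joined and 1.42 with peaks less than 5 kb apart joined, and the bithorax to Antennapedia density ratio was 1.29 with the latter. After joining at 1 kb and 5 kb, the bithorax window held 25 and 17 peaks, against medians of 21.5 and 12 in comparison windows. Why these values changed side was not tested. The bithorax median score was 1.86 times that of the other peaks among peaks wider than the list median, and the Antennapedia median width 1.04 times that of the median window with windows 20 kb narrower; the cause was not tested. Settings for median width and for the share with at least 4 others were chosen after seeing the data; the bithorax values ranged from 0.679 to 0.72 and from 0.0717 to 0.0962 times the median window. No paired analysis was possible because single libraries have no values in the file, and leaving out a replicate was not run for the same reason. Depth is unknown, so peak-free means only that no peak was called.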
